A study of Mus musculus with 289 samples.

Results

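The genes described here are 40 genes that make, modify and store the lipids of sebocytes, the oil-producing cells of the sebaceous gland. They were chosen by gene symbol, and 36 of the 40 had a row in the table of 15019 genes. Plin5, Awat1, Cidec and Mogat2 had no row and were not analysed here. The list holds the enzymes of fatty acid synthesis, elongation and desaturation, of acyl-CoA formation, of fatty alcohol, wax ester, glycerolipid and cholesteryl ester synthesis, the proteins of the lipid droplet, a pair of transcription factors, and carrier and membrane proteins.

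Sebum is made by holocrine secretion: a sebocyte fills with lipid droplets, breaks down and is replaced from progenitors at the edge of the gland. Acetyl-CoA is built into fatty acids, which are lengthened, desaturated, activated to acyl-CoA and then joined to glycerol, cholesterol or fatty alcohols to give triglycerides, cholesteryl esters and waxes. Mouse sebum is rich in waxes and monounsaturated fatty acids, and the nuclear receptor Pparg drives sebocyte differentiation. Lrig1 marks stem cells of the junctional zone of the hair follicle, whose progeny include sebocytes, sebaceous duct cells and cells of the infundibulum.

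RefSeq promoter windows were available for 28 of the 36 genes, and those of 4 genes that stood higher in sebocyte-like cells are printed, since these are the members the comparison between cells turns on. Each runs 5′ to 3′ from 250 bases before to 50 bases after a transcription start on GRCm38.p6, and capitals mark letters that matched a CCAAT box (CCAAT), a GC box (GGGCGG) or an E-box (CACGTG) on either strand. Scd1 is named without a window.
Soat1 promoter, chr1:156474279-156474578, minus strand: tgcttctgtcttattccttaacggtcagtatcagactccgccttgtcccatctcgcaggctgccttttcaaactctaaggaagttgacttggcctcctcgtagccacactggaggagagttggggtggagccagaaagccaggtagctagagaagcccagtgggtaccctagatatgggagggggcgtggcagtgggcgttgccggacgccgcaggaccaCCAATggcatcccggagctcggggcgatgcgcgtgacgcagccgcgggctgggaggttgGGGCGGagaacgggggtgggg
Elovl6 promoter, chr3:129532136-129532435, plus strand: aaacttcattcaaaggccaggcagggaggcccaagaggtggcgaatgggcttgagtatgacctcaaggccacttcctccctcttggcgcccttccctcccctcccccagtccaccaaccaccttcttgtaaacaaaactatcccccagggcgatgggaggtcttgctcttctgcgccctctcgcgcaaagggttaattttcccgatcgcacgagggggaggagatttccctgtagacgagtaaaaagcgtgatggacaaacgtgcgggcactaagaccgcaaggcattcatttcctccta
Plin2 promoter, chr4:86670010-86670309, minus strand: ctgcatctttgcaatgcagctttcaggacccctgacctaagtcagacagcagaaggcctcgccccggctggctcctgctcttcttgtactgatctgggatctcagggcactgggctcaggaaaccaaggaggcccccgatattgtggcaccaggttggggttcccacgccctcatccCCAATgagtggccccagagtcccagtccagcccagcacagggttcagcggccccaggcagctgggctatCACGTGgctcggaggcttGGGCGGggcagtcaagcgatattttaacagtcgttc
Mgst1 promoter, chr6:138140277-138140576, plus strand: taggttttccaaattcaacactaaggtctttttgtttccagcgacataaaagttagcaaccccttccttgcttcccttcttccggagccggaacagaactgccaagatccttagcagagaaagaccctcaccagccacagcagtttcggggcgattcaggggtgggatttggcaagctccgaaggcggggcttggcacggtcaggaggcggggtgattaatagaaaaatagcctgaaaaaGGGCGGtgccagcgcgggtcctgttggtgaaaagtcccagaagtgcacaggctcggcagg
The Plin2 window held a CCAAT box, an E-box and a GC box. The Soat1 window held a CCAAT box and a GC box, and the window at the first of the starts of Mgst1 held a GC box. None of the searched motifs was in the Elovl6 window. Over the 38 windows of the list, 63.2% held a GC box and 55.3% a CCAAT box, beside 35.7% and 37.4% of all 32851 windows. An E-box was in 5.26% of the windows of the list and in 7.15% of all windows. TCACNCCAC, a form of the sterol response element, was in 2.63% of the windows of the list beside 1.24% of all.

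The cells came from tail skin of adult mice of a mixed CBA C57BL/6 strain. The mice carried the allele Lrig1-EGFP-ires-CreERT2, which drives an inducible Cre from the Lrig1 locus, and the reporter Rosa26-fl/STOP/fl-tdTomato, so that hydroxytamoxifen on the skin switches on tdTomato in Lrig1-expressing cells and their progeny. All mice carried these alleles, received hydroxytamoxifen and were not wounded. The skin was treated with vehicle or with PRT4165, an inhibitor of the Ring1a/Ring1b ubiquitin ligases of Polycomb repressive complex 1, and tdTomato-positive epidermal cells were sorted singly for Smart-seq2, a full-length RNA-seq method without molecular identifiers. There were 4 plates, 2 of each treatment, and the plate was the replicate. The treatment labels also carry a code that differs between the vehicle and the PRT4165 plates. Whatever that code marks cannot be told apart from the treatment. The question was whether the lipid genes, and the cells that express them together, differed between the treatments. Of 289 deposited cells, 274 passed the filters of at least 1000 genes detected and at most 50% mitochondrial counts: 70 and 55 cells in vehicle replicates 1 and 2, and 72 and 77 in PRT4165 replicates 1 and 2. The kept cells of a plate held between 25761756 (vehicle replicate 1) and 41592716 (PRT4165 replicate 2) estimated counts. Vehicle replicate 1 was also the shallowest per cell, with a median of 141985 counts beside 429383 to 538754 in the other plates. The study describes its scRNA-seq as separate experiments on several animals each, but the labels tie no cell to a mouse. The p-values between treatments therefore rest on plates, not mice.

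Few cells expressed these genes together. Sebocyte-like cells were called by anchor genes of the list: at least 2 of Far2, Cidea, Elovl3 and Awat2 at 20 CPM or more, where CPM is a count scaled by the total of the cell or plate. This gave 11 of the 274 cells. There were 0 of 70 in vehicle replicate 1 (95% Wilson upper limit 5.20%, or up to 4.29% by the limit of 3 counts), and 3 of 55 in vehicle replicate 2 (5.45%, 95% Wilson interval 1.87 to 14.8%). In PRT4165 replicate 1 there was 1 of 72 (1.39%, 0.246 to 7.46%) and in PRT4165 replicate 2 there were 7 of 77 (9.09%, 4.47 to 17.6%). The treatments overlapped, since each had a plate near 0 and a plate with several such cells. The mean share was 2.73% ± 3.86 (SD, n = 2 plates) with vehicle and 5.24% ± 5.45 with PRT4165, a difference smaller than the spread between plates (2.51 percentage points, exact two-sided permutation test, p = 0.667, where 0.333 is the smallest p that 4 plates allow). Within the first replicates the difference was 1.39 points and within the second 3.64 points, and at equal depth the difference of the means was 2.903 points. The difference turned to -1.50 points with a stricter filter (at least 2000 genes and at most 25% mitochondrial counts), to -1.34 points without PRT4165 replicate 2 and to -0.21 points without vehicle replicate 1. Mitochondrial counts were above 25% in 6 of the 11 class cells, all 6 among the 8 from PRT4165 plates, beside 109 of 263 other cells. Intervals and floors cover counting error only.

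The label was checked against sebaceous gland genes outside the list. Of 9 such markers, Fa2h, Ldhb, Adh1 and Cers4 were called higher than in the other cells of the same plates and none was called lower. Of all genes tested, 0.356% were called higher and 1.37% lower. Fa2h had a count in only 5 of the 11 cells. It stood at 0, 0.079 and 7.69 CPM in the other cells, so it entered the test largely through the class. Prdm1 had a negative log2 difference (-5.26, SE 3.56) that did not pass. Mc5r, the melanocortin receptor of sebocytes, did not pass (log2 difference 4.48, SE 1.52, edgeR adjusted p = 0.127). It was detected in 10 of the 11 cells, at only 1.99 CPM in a cell of vehicle replicate 2. The remaining cell was from PRT4165 replicate 2 and had no count of Scd1, Elovl6, Pparg or Soat1, while Krt79, a keratin of the sebaceous duct and upper follicle, stood at 23046 CPM in it beside 98.6 to 1608 CPM in the others. Fat cells are the other lipid-storing cells of skin, and their droplet coat gene Plin1 was at 0 to 0.383 CPM and their fatty acid carrier Fabp4 at 0 to 1.26 CPM in the class of the 3 plates that had one. The summed level of the 5 adipocyte markers in the table was 69.1 to 263 CPM in the class and 16.0 to 27.2 CPM in the other cells of all 4 plates, nearly all of it Lpl, at 59.4 to 262 CPM in the class.

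Although rare, these 11 cells carried much of the signal of the list. They held 7.53% of all counts but 66.98% of the list's counts in vehicle replicate 2, and 11.5% against 56.3% in PRT4165 replicate 2. In PRT4165 replicate 1, where the class was a single cell, they held 1.62% against 17.97%. At an equal depth of 50000 counts per cell, which left out 28 shallower cells, 9 to 25 of the 36 genes were detected in each class cell (median 18, 11 cells), beside 1 to 18 (median 7) in each of 235 other cells. Over all genes the medians were 3382 and 2608 detected. Without equal depth the medians were 20 and 8 lipid genes, in cells whose median depth was 801153 and 390117 counts. The anchors, which chose the class, are part of these counts. Without them the medians at equal depth were 16 and 7.

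**Figure D1:**
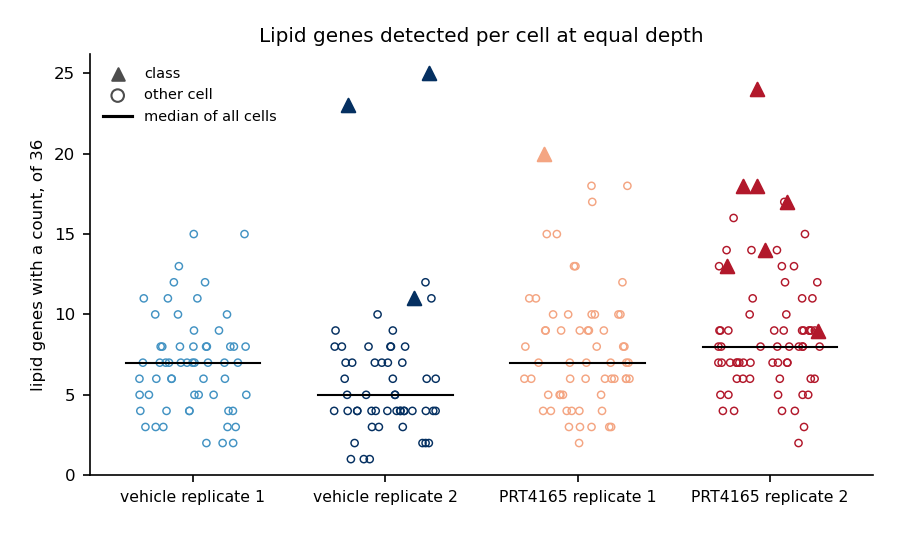
Number of the 36 lipid genes with at least 1 count in each cell (vertical axis) after thinning to 50000 counts, by plate; triangles are the 11 class cells, open circles the other 235 cells, and lines the median of all cells of a plate. The plate medians lie between 5 and 8, and class cells reach 25.

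Scd1, the stearoyl-CoA desaturase that makes monounsaturated fatty acids, and Mgst1, a microsomal glutathione transferase abundant in sebocytes, marked a wider set of cells than the anchors did. Both stood at 1000 CPM or more in 25 of 274 cells: 2 of 70 and 2 of 55 with vehicle (2.86% and 3.64%), and 6 of 72 and 15 of 77 with PRT4165 (8.33% and 19.5%). Both PRT4165 plates lay above both vehicle plates, with means of 13.9% ± 7.88 and 3.25% ± 0.551 (SD, n = 2). This threshold was chosen after the values were seen, so no test is given. With the stricter cell filter the means were 10.2% and 4.48%. At 500 CPM the shares were 4.29% and 5.45% with vehicle and 9.72% and 23.4% with PRT4165, and at 2000 CPM 1.43% and 3.64% against 5.56% and 7.79%. Outside the class, 16 cells passed the pair of thresholds, 2 and 0 with vehicle and 5 and 9 with PRT4165. Adding Elovl6 at 100 CPM left 16 cells, 0 and 2 with vehicle and 3 and 11 with PRT4165. Pparg was detected in 29 cells, 4 and 3 with vehicle and 5 and 17 with PRT4165.

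**Figure D2:**
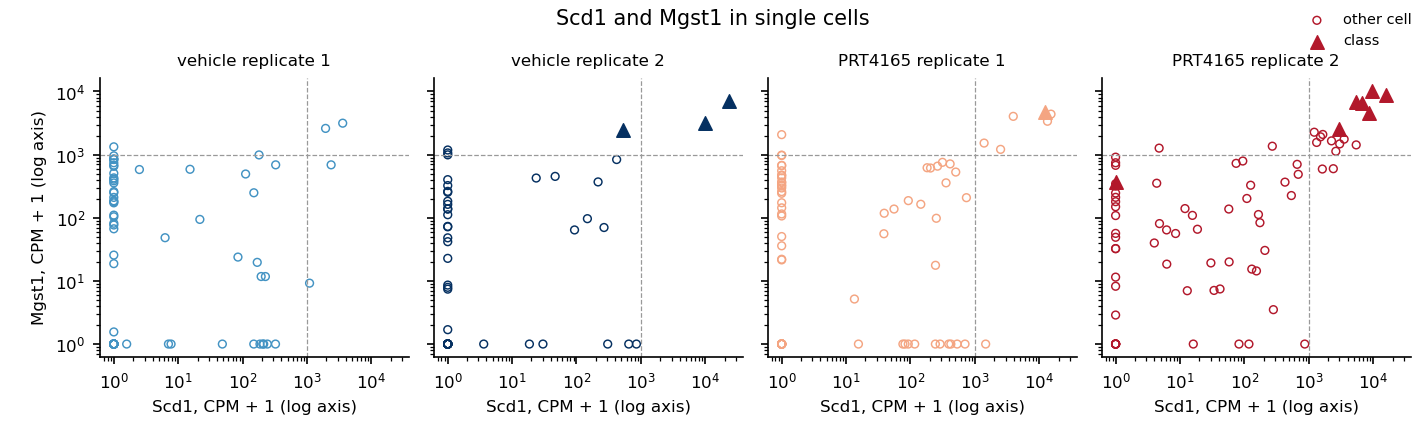
Scd1 (horizontal) and Mgst1 (vertical) in each kept cell as CPM + 1 on log axes, 1 panel per plate; triangles are class cells, open circles other cells, and dashed lines mark 1000 CPM. The upper right corner of the panels holds 2, 2, 6 and 15 cells from left to right, and 1 class cell of PRT4165 replicate 2 lies at 0 for Scd1.

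Across 246 cells at equal depth, the genes of the list whose level followed Scd1 most closely were Pparg (Spearman 0.50), Elovl6 (0.47), Dgat2 (0.42) and Plin2 (0.37), given as a description since cells of a plate share library preparation. Outside the class these values were 0.38, 0.35, 0.32 and 0.27. All 4 were among the 40 genes most like Scd1 of 10436 compared. The median over 29 genes of the list was 0.19, and over all genes compared 0.04. Adh1, Tlcd4 and Oxtr, which are not on the list, came first at 0.58, 0.53 and 0.51. For the enzymes of fatty acid synthesis the values were 0.21 for Fasn, 0.16 for Acly and 0.04 for Acaca.

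The class was then compared with the other cells of the same plates over the genes that had not chosen it, to ask which other lipid genes were high in the same cells. Of 30 genes of the list tested, 5 were higher in the class (edgeR quasi-likelihood test with plate as a block, adjusted p under 0.05) and 0 were lower, beside 0.356% of all 12075 genes higher and 1.37% lower. The 5 were Scd1, Mgst1, Elovl6, Soat1 and Plin2. A total of 13 of the 30 had an unadjusted p under 0.05, beside 16.5% of all genes. DESeq2 called 8 higher, the same 5 and Gpam, Pparg and Srebf1, and 3 lower, Fads1, Acsl3 and Far1, beside 0.936% and 11.6% of all genes. The median log2 difference was 1.24 over the 30 genes and -1.68 over all genes tested. The class sums came from 3 cells, 1 cell and 7 cells, so a gene found in few cells could be at 0 in them.

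Of the desaturases and elongases tested, 1 of 4 and 1 of 3 were higher. Scd1 stood at 13261, 12501 and 8149 CPM in the class of vehicle replicate 2, PRT4165 replicate 1 and PRT4165 replicate 2, and at 60.3, 366 and 508 CPM in their other cells. Its log2 difference was 5.32 (SE 0.32, edgeR adjusted p = 1.71e-56), and 5.43 with DESeq2 (adjusted p = 6.61e-04). The edgeR SE borrows its spread from all genes and is not the spread of this gene between plates. Over the alternatives the adjusted p ranged from 2.75e-82 to 0.0570, the latter without PRT4165 replicate 1. The class sum stood above that of the other cells in every plate, and single class cells ranged from 0 to 23229 CPM (median 8512). Elovl6, which lengthens palmitate to stearate, the substrate of Scd1, stood at 915, 682.5 and 1410 CPM in the class and at 5.98, 19.3 and 43.1 CPM in the other cells. The difference was 5.56 (SE 0.80, edgeR adjusted p = 2.38e-09), with a count in 10 of 11 class cells, and it did not pass with no plate block (adjusted p = 0.0565, in a range of 3.83e-14 to 0.0565 over the alternatives). Scd1 lies at chr19:44394455-44407879 on GRCm38, beside its close paralogs Scd2 and Scd3, so reads could be split among them.

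The paralogs and the desaturases of polyunsaturated fatty acids did not share the pattern of Scd1. Scd2 stood at 189.6, 214.5, 192.4 and 235.4 CPM in the other cells of the 4 plates. In the class it stood at 370, 0 and 15.3 CPM, detected in 4 of 11 cells, and 1 cell of vehicle replicate 2 at 867 CPM held most of it. Its log2 difference was -3.74 (SE 1.45, edgeR adjusted p = 0.211). Fads1 and Fads2, the delta-5 and delta-6 desaturases, had a count in 0 of 11 class cells, which allows a share of up to 27.3%, and in 21 and 12 of the 263 other cells. Scd3 was too low to test. Elovl1 and Elovl5, elongases of very long and polyunsaturated chains, were each detected in 4 class cells, with log2 differences of -1.88 (SE 2.11) and -2.71 (SE 2.46).

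Of the enzymes of esterification and the proteins of storage, Soat1 and Plin2 passed. Soat1, which esterifies cholesterol, stood at 870, 801 and 170.96 CPM in the class and at 0.811, 10.4 and 1.25 CPM in the other cells, a log2 difference of 7.51 (SE 1.14, edgeR adjusted p = 1.89e-08), although only 6 of 11 class cells had a count. With no plate block it did not pass (adjusted p = 0.0577, in a range of 7.81e-13 to 0.0577 over the alternatives). Plin2, a droplet coat protein, was detected in all 11 class cells, at 973, 564 and 431 CPM against 38.2, 29.2 and 49.1 CPM. Its log2 difference was 3.80 (SE 0.87, edgeR adjusted p = 0.00197), and it no longer passed at equal depth, with the stricter cell filter, with no plate block, or without PRT4165 replicate 1 or vehicle replicate 2 (adjusted p = 0.0877, 0.0584, 0.0565, 0.129 and 0.428, in a range of 1.75e-05 to 0.428 over the alternatives). Both genes stood apart from the other cells in every plate. Cidea, an anchor that promotes droplet growth, was found in all 11 class cells at 27.5 to 588 CPM. Plin3 (-1.16, SE 2.09), a general droplet coat protein, and Pnpla2 (1.25, SE 2.24), the lipase that starts triglyceride breakdown, did not pass.

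Among the glycerolipid enzymes, Dgat2, which completes triglyceride synthesis, was detected in 10 of 11 class cells at 155.3, 122.04 and 93.8 CPM in the class and 19.0, 25.3 and 16.8 CPM in the other cells. Its log2 difference of 2.37 (SE 1.39, edgeR adjusted p = 0.389) did not pass. Gpam, the first acyltransferase of the pathway, had 3.92 (SE 1.60, edgeR adjusted p = 0.253) with counts in 9 class cells. Dgat1, Agpat2 and Lpin1 were in 4, 4 and 3 class cells, with log2 differences of 1.24, -0.69 and 1.85 and SEs of 2.46 to 2.76.

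Of the fatty acid synthesis enzymes none passed. Fasn, fatty acid synthase, was detected in 10 class cells at 235, 17.7 and 75.7 CPM in the class and 16.7, 9.41 and 17.6 CPM in the other cells (log2 difference 2.08, SE 1.54, edgeR adjusted p = 0.549). Me1, which supplies NADPH, stood at 92.6, 302 and 110 CPM against 14.3, 65.4 and 51.6 CPM (1.77, SE 1.22, edgeR adjusted p = 0.499). Both class sums were above the other cells in all 3 plates, but neither gene passed. Acly, which makes cytosolic acetyl-CoA, and Acaca, which makes malonyl-CoA, had log2 differences of 1.06 (SE 1.86) and -1.82 (SE 2.41), and Acaca was found in 3 class cells only.

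Acyl-CoA enzymes were split. Acsbg1, an acyl-CoA synthetase, had a count in all 11 class cells, at 513.5, 202.3 and 146.2 CPM in the class and 5.89, 34.8 and 32.1 CPM in the other cells (3.32, SE 1.23, edgeR adjusted p = 0.185). Its relatives had differences nearer 0 or below it: Acsl1 was at 0, 162.2 and 18.04 CPM in the class against 37.0, 103 and 44.6 CPM (-2.08, SE 1.77), and Acsl4 was at 134.7, 245.7 and 23.9 CPM against 64.02, 48.6 and 68.9 CPM (0.44, SE 1.34). Neither passed (edgeR adjusted p = 0.626 and 0.921). Acsl3 was in 2 class cells at up to 5.44 CPM, and the thioesterase Acot1, whose paralogs could share its reads, was in 2 at up to 24.1 CPM.

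Far2 and Far1 are the fatty alcohol reductases of the list. Far2, an anchor, was found in all 11 class cells at 20.03 to 1863 CPM and in 13 of 263 other cells. Far1 was found in 1 class cell and 73 other cells (log2 difference -5.75, SE 3.26, edgeR adjusted p = 0.364), where its summed level was 16.8 to 96.0 CPM. DESeq2 called Far1 lower (adjusted p = 0.0245, in a range of 0.0245 to 0.982 over the alternatives). Elovl3 and Awat2, anchors for very long chain and wax ester synthesis, were in 6 and 3 class cells, at up to 413 and 119 CPM. The description of anchors carries no test, since they chose the cells.

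Neither regulator passed. Pparg was detected in 10 class cells and 19 other cells, at 124, 124 and 123 CPM in the class and 0, 5.39 and 10.97 CPM in the other cells of the same plates. In vehicle replicate 1, which had no class cell, it stood at 13.04 CPM. Its log2 difference was 5.36 (SE 1.78, edgeR adjusted p = 0.111), and the class stood above the other cells in all 3 plates. With DESeq2, with anchors at 100 CPM and with the stricter cell filter it passed (adjusted p = 0.0109, 0.00920 and 0.0451, in a range of 0.00920 to 0.748 over the alternatives). Srebf1, the activator of fatty acid synthesis genes, stood at 158.4, 155.8 and 16.2 CPM against 9.22, 3.38 and 7.01 CPM (3.44, SE 1.73, edgeR adjusted p = 0.300). It was detected in 10 class cells and 72 other cells, and it passed with DESeq2 (adjusted p = 0.0440, in a range of 0.0440 to 0.877 over the alternatives).

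Mgst1 stood at 4515, 4660 and 6157 CPM in the class and 166.7, 319.2 and 413.8 CPM in the other cells, a log2 difference of 3.95 (SE 0.39, edgeR adjusted p = 8.00e-21). With DESeq2 its adjusted p was 0.0076. It was detected in all 11 class cells, as was Apoc1, a small apolipoprotein. Apoc1 stood at 966, 498 and 401 CPM in the class against 132.1, 108.6 and 158.8 CPM in the other cells (1.91, SE 0.78, edgeR adjusted p = 0.253). It was the most widely detected gene of the list, in 232 of 274 cells. Cd36, a fatty acid transporter, had a count in 2 cells, both in the class of PRT4165 replicate 2.

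**Figure D3:**
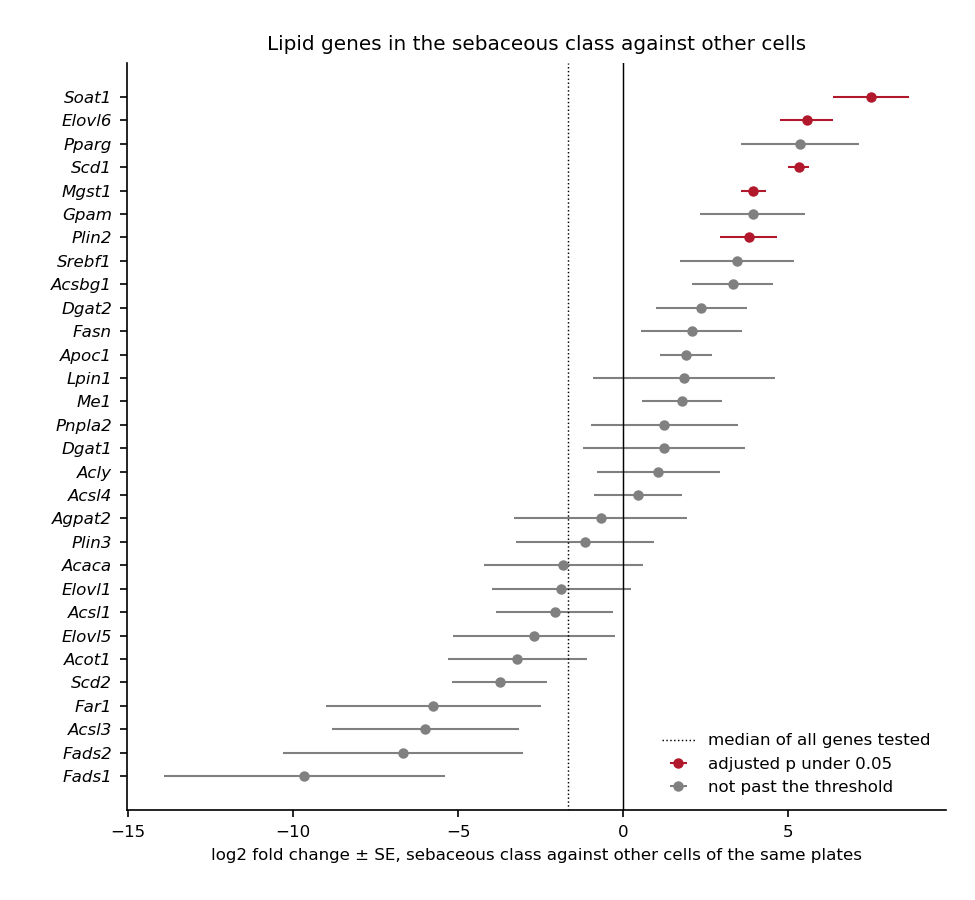
Log2 fold change ± SE of the 30 lipid genes tested, sebaceous class against the other cells of the same 3 plates; red genes passed an edgeR adjusted p of 0.05 and the dotted line is the median of all genes tested, -1.68. Soat1, Elovl6, Scd1, Mgst1 and Plin2 passed, from 3.80 to 7.51.

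**Figure D4:**
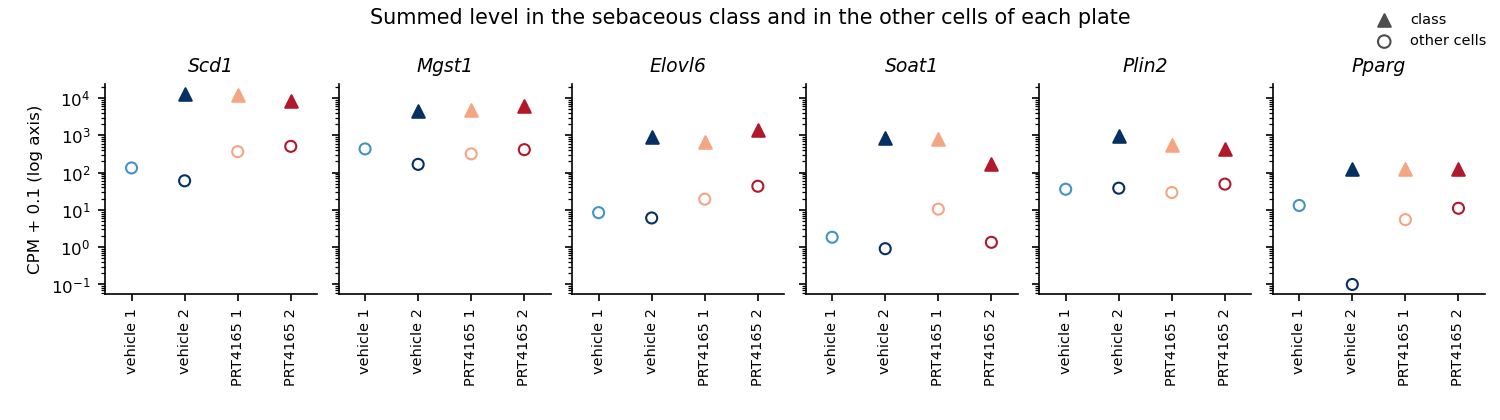
Summed level (CPM + 0.1, log axis) of 6 lipid genes in the class (triangles) and in the other cells (open circles) of each plate; vehicle replicate 1 had no class cell. Class values lie above the other cells in every plate that had a class.

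Other lipid pathways were mixed in the class. Of 18 fatty acid oxidation genes, 0 passed in edgeR, 4 had an unadjusted p under 0.05 (beside 16.5% of all genes), DESeq2 called 0 higher and 0 lower, and 16 had a positive difference (median 1.21), beside 21.7% of all genes. Of 24 other lipid synthesis and droplet genes tested, Tecr, Fa2h and Cers4 were higher and 0 lower, beside 0.356% and 1.37% of all genes. Fa2h and Cers4 were also among the sebaceous gland markers given above, so these are the same calls. Tecr, the last enzyme of the elongation cycle, had 2.58 (SE 0.56, edgeR adjusted p = 6.22e-04) and Cers4, a ceramide synthase, 4.68 (SE 0.71, edgeR adjusted p = 1.85e-08). Of the markers of other cells of the follicle and epidermis, 3 of 6 duct and upper follicle markers were lower in the class. So were 4 of 6 markers of differentiated interfollicular cells, 3 of 5 bulge markers, 1 of 5 basal markers and 1 of 5 cycling markers. None was higher, beside 1.37% of all genes lower and 0.356% higher, and a median log2 difference of -1.68 over all genes. The duct marker Krt79 (-0.93, SE 0.49) and the basal marker Krt14 (-0.40, SE 0.47) did not pass. In PRT4165 replicate 2 both stood higher in the class, at 2441 against 1047 CPM and 2638 against 984 CPM. Outside the list, the genes of smallest p higher in the class were Apoe, Cers4, Ermp1, Psph, Mpc2, Adh1, Cat, Aadacl4fm4, Tlcd4 and Bex1. Bex1 was detected in only 3 class cells and was at 0 CPM in the class of vehicle replicate 2. Aadacl4fm4 was detected in 6 class cells and was at 0 CPM in the class of PRT4165 replicate 1. In the other cells of the same plates Bex1 was at 0 to 0.299 CPM and Aadacl4fm4 at 0 CPM. Both therefore entered the test through the class in which they were high.

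PRT4165 was then compared with vehicle over all cells of a plate. No lipid gene was called: edgeR passed 0 of 35 tested (Cd36 was too low) and 0% of all 12791 genes, with an unadjusted p under 0.05 for 0 lipid genes and 630 genes. DESeq2 called 0 lipid genes, with 102 genes higher and 69 lower in all. The median log2 change was 0.07 over the 35 genes and -0.02 over all genes. The median over the lipid genes did not keep its sign: it was 0.44 at equal depth, -0.17 with the stricter cell filter and -0.36 when PRT4165 replicate 2 was left out. Dropping the other PRT4165 plate gave 0.42, and dropping vehicle replicate 2 gave 0.71. In these sums, fewer cells of a type and less RNA per cell cannot be told apart. The lipid genes summed to 1498 and 2784 CPM with vehicle and 1940 and 3799 CPM with PRT4165, so the treatments overlapped, with ratios of 1.29 within the first replicates and 1.37 within the second.

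Per kilobase of exon, the mean CPM over the 4 plates was highest for Mgst1 (296.7), Apoc1 (195.4) and Scd1 (160.2), then Scd2 (37.3), Plin2 (19.6) and Cidea (16.1), and was under 14 for the other genes. Scd1 stood at 133.7 and 1054 CPM with vehicle and 563 and 1384 CPM with PRT4165. The vehicle plates enclosed PRT4165 replicate 1, and the log2 change of 0.88 (SE 0.83, edgeR adjusted p = 0.997) was close to its error. Dropping PRT4165 replicate 2 brought it to 0.02, and dropping the first or the second vehicle plate gave 0.09 or 2.78. With the stricter cell filter, which kept 5 of the 11 class cells, the change of Scd1 was -1.13. Mgst1 stood at 434 and 494 CPM against 389.5 and 1072 CPM, so that 1 PRT4165 plate was high and the other was below both vehicle plates (0.72, SE 0.56, edgeR adjusted p = 0.997). Together these genes made 37.9% and 55.6% of the list's level with vehicle and 49.1% and 64.6% with PRT4165.

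Elovl6 had the smallest p among the lipid genes that were higher with PRT4165, at 8.35 and 74.4 CPM with vehicle and 30.1 and 200 CPM with PRT4165 (log2 change 1.66, SE 1.10, unadjusted p = 0.168, edgeR adjusted p = 0.997). The plates overlapped, and the second replicate was the higher in each treatment. Elovl5 stood at 14.8 and 19.3 against 46.05 and 21.5 CPM (1.01, SE 0.72), and Acsl3, an acyl-CoA synthetase of the endoplasmic reticulum and droplets, at 6.91 and 6.80 against 12.5 and 16.4 CPM (1.11, SE 0.83). Both PRT4165 plates lay above both vehicle plates for these and for Me1 and Gpam, 4 of 35 genes, beside 15.4% of all genes. Both lay below for Fads1, Acsl4 and Dgat1, 3 of 35 genes, beside 16.3% of all genes. Neither count exceeded its background.

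Among genes lower with PRT4165, Far1 stood at 96.0 and 31.1 CPM with vehicle and 16.5 and 41.6 CPM with PRT4165 (-1.15, SE 0.82), and 85.0% of its counts in vehicle replicate 1 came from 1 cell. Fads1 stood at 6.52 and 10.5 against 5.38 and 1.15 CPM (-1.35, SE 1.09), and Dgat1 at 6.56 and 12.8 against 3.25 and 4.86 CPM (-1.17, SE 0.95). The edgeR adjusted p was 0.997 for each. The last 2 did not overlap between treatments, at levels of a few CPM.

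The anchors were higher in the second replicates, which held 10 of the 11 class cells. Far2 stood at 0.497 and 34.8 CPM with vehicle and 5.54 and 79.3 CPM with PRT4165 (log2 change 1.48, SE 1.61), Cidea at 2.10 and 28.1 against 4.004 and 37.7 CPM (0.67, SE 1.30), and Elovl3 at 0.349 and 9.97 against 0 and 10.9 CPM (0.29, SE 2.15). Awat2 stood at 0 and 3.95 against 0.078 and 1.08 CPM (-1.54, SE 2.21), and 1 cell gave 97.1% of its counts in vehicle replicate 2. Of the regulators, Pparg stood at 13.04 and 9.36 against 7.31 and 23.8 CPM (0.51, SE 0.90), and Srebf1 at 7.14 and 20.5 against 5.85 and 8.06 CPM (-0.88, SE 0.89). None of these passed (edgeR adjusted p = 0.997).

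The remaining genes overlapped between treatments. Scd2 stood at 190 and 226 CPM with vehicle and 189 and 210 CPM with PRT4165 (-0.01, SE 0.46), and 1 cell gave 69.5% of its counts in vehicle replicate 1. Plin2 stood at 35.8 and 109 against 37.8 and 92.9 CPM, and Apoc1 at 85.2 and 194.9 against 114.9 and 186.5 CPM. Soat1 stood at 1.75 and 66.2 against 23.2 and 20.7 CPM, with log2 changes of 3.14 within the first and -1.63 within the second. Acly, Acaca, Fasn, Elovl1, Acsl1, Acsbg1, Agpat2, Dgat2, Plin3 and Pnpla2 had log2 changes between -0.38 and 0.77. Acot1, Lpin1, Fads2 and Scd3, at 1.17, -2.16, 0.46 and -0.77, had SEs of 1.04 to 1.78.

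**Figure D5:**
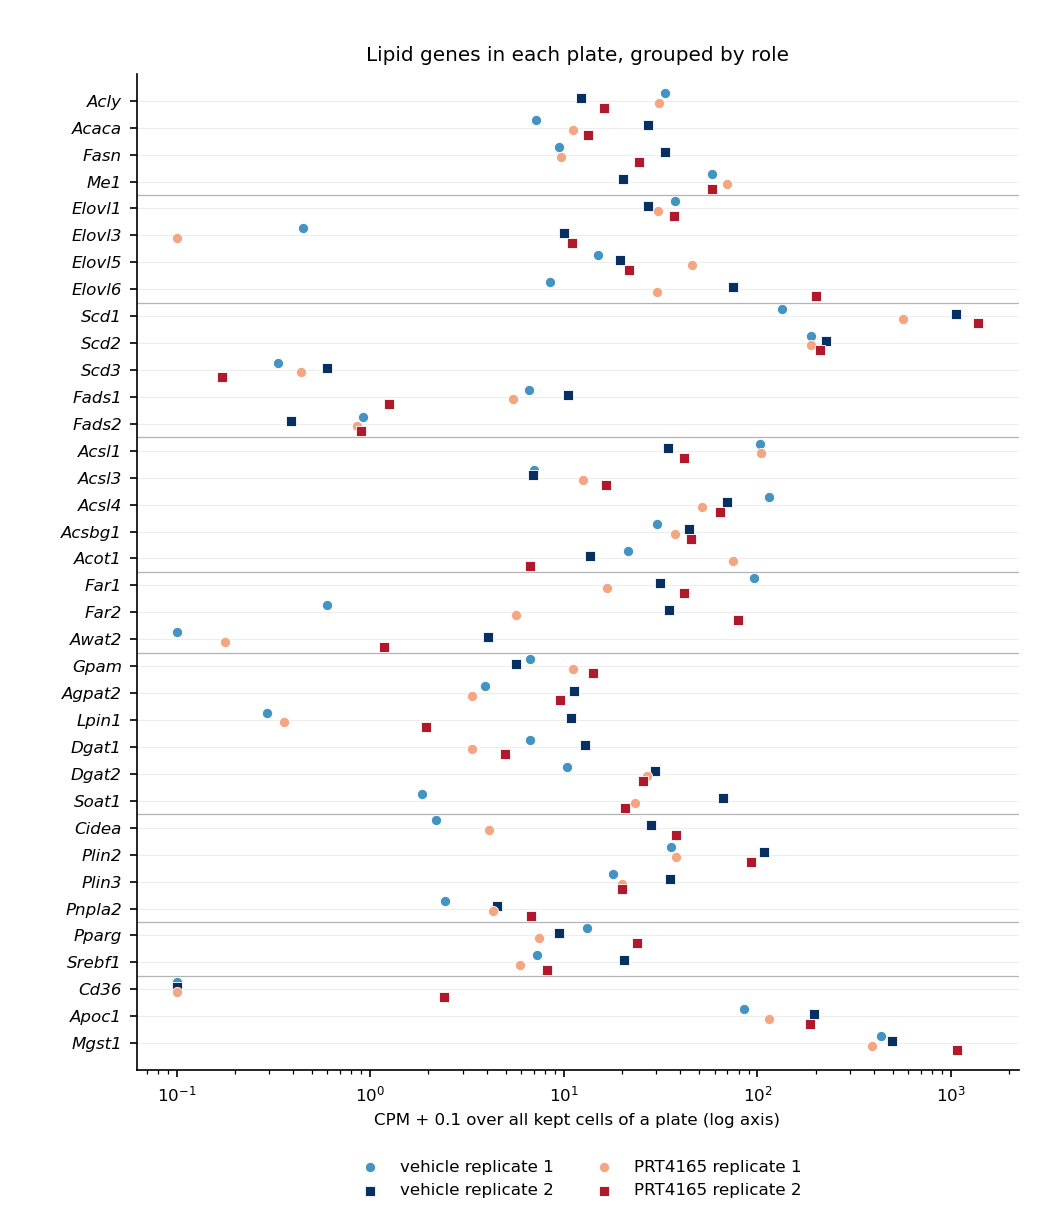
Level of the 36 lipid genes in each plate as CPM + 0.1 over all kept cells (horizontal log axis), ordered by role with lines between roles; blue marks are vehicle, red marks PRT4165, circles replicate 1 and squares replicate 2. In many genes, among them Far2, Cidea, Elovl6, Plin2, Scd1, Mgst1, Apoc1 and Fasn, both squares lie to the right of both circles. In Acsl1, Acly and Acot1 both lie to the left. Such genes were not counted against all genes.

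The comparison of treatments was repeated without the class cells. The cells left in still held cells high in these genes. Both Scd1 and Mgst1 were at 1000 CPM or more in 2 and 0 of them with vehicle and 5 and 9 with PRT4165. In PRT4165 replicate 1, Scd1 reached 15257 CPM in such a cell. How far these cells carry the changes below was not tested. Among the 31 lipid genes then tested without the anchors, edgeR called 0, as it did 0% of all 12667 genes, with an unadjusted p under 0.05 for 2 lipid genes and 613 genes. DESeq2 called 0 lipid genes and 1.43% of all genes. The 2 were Scd1 and Elovl6. Scd1 stood at 133.7 and 60.3 CPM with vehicle and 366 and 508 CPM with PRT4165 (log2 change 2.17, SE 0.60, unadjusted p = 0.00817, edgeR adjusted p = 0.951). Over 15 alternatives its change stayed between 1.64 and 2.998, with an adjusted p of 0.134 to 1. Elovl6 stood at 8.35 and 5.98 against 19.3 and 43.1 CPM (2.15, SE 0.83, unadjusted p = 0.0346, edgeR adjusted p = 0.995), and its change lay between 0.03, with the stricter cell filter, and 3.14 over the alternatives. In both genes the PRT4165 plates lay above the vehicle plates, as they did for Acsl3 and Acsbg1, 4 of 31 genes beside 16.4% of all genes. Fads1, Dgat1 and Srebf1 lay below, 3 of 31 beside 16.2%. The median log2 change was 0.27 over the 31 genes and -0.00 over all genes. Mgst1 outside the class stood at 433.7 and 166.7 against 319.2 and 413.8 CPM (0.27, SE 0.60), so it did not share the separation of Scd1. The sebaceous markers outside the list summed to 190 and 110 CPM with vehicle and 399.5 and 471 CPM with PRT4165 in the same cells, and their part in the levels of Scd1 and Elovl6 was not tested.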

How the data were processed

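Full-length single-cell RNA-seq was measured in 289 cells of 4 plates. The authors quantified reads with Salmon 0.13.1 against ENSEMBL 101 (GRCm38) and deposited estimated counts per gene, of which 18.3% of nonzero values were not whole. Gene positions came from GENCODE M21 and promoter windows from RefSeq, both on GRCm38. Cells with at least 1000 genes and at most 50% mitochondrial counts were kept, without a doublet caller, since wells were sorted singly. Counts were summed over the cells of a plate, rounded and tested with edgeR 4.0.16 (filterByExpr, TMM, quasi-likelihood F-test, Benjamini-Hochberg over all genes tested, threshold 0.05) in R 4.3.3. DESeq2 1.42.0 was an alternative. The class was tested on sums of class and other cells per plate with plate as a block. Its p-values borrow their spread from all genes, since each plate gave 1 pair of sums. Its SEs and smallest edgeR p-values therefore do not measure the spread of a single gene between plates. For depth, cells were thinned to 50000 counts. The scripts were tested on simulated data. Recovery of changed genes was required there only at a spread lower than that of these data. Genes were named by a rule: anchors, regulators, Scd1 and Mgst1 always, then the smallest p in each comparison. The members and lists were chosen with earlier results of these data known. The labels give the replicate number as a batch, so values are also given within replicates. As a check, the replicate differences of vehicle and PRT4165 correlated at 0.04 over 12791 genes.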

Additional observations from a re-analysis of the deposited data

How the results depend on the processing

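The calls of lipid genes with PRT4165 stayed at 0 under all alternatives run, in all cells and outside the class, and the replicate block gave 0 as well. The number higher in the class was 8 with DESeq2, 2 with no plate block (Scd1 and Mgst1), and 3 to 5 without 1 plate, where Scd1 and Plin2 dropped out without PRT4165 replicate 1. It was 4 to 7 under the other alternatives. The differences in class share, PRT4165 minus vehicle, turned to -1.50 points with the stricter cell filter and ran from -1.34 to 6.36 without 1 plate. For single genes with PRT4165, 20 values changed sign. With the stricter cell filter these were Far2 (-2.9998), Cidea (-0.14), Elovl3 (-4.67), Pparg (-0.17), Scd1 (-1.13), Elovl6 (-0.85) and Far1 (0.66). Elovl3 was -0.18 at equal depth and -1.67 with the replicate block, and Elovl5 was -0.18 without a cell filter. Leaving out 1 plate gave -1.55 to 6.33 for Far2, -1.80 to 3.25 for Cidea, -10.3 to 3.90 for Elovl3, -4.47 to 7.39 for Awat2, -0.66 to 1.15 for Pparg, -0.26 to 1.30 for Mgst1, -0.36 to 3.72 for Elovl6 and -2.04 to 0.10 for Far1. In the class, Acsl4 was -0.079 at equal depth, -0.078 with anchors at 100 CPM and -0.37 to 1.32 without 1 plate, and Me1 was -1.05 with the stricter filter. The cause was not tested. The share of cells high in Scd1 and Mgst1, with alternatives chosen after seeing the data, stayed higher with PRT4165, by 4.14 to 16.2 points. With 2 plates a treatment and 11 class cells, a change would have to be large against the spread between plates to be called.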
